A study of Mus musculus with 2 samples.

Results

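Some long reads of a gene lacked its annotated first introns and then followed the annotated splicing to the end. A transcript model of such reads is called an incomplete splice match of the suffix kind, since its introns are the last introns of an annotated transcript and the first 1 or more are missing. The set described here holds the suffix models with 2 or more exons in annotated genes and 10 or more reads in either of the 2 libraries. After matching of models by all their introns it held 1612 intron chains (ordered sets of introns) in 971 genes, out of 38871 suffix chains and 143637 chains with 2 or more exons in annotated genes. Replicate 1 held 707 of the models with 10 or more reads and replicate 2 held 1447. The chains were chosen by read numbers, so their read numbers are given as a description.

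The study sequenced total RNA in long reads from the adrenal gland of 10-day-old males of the F1 hybrid B6CASTF1/J, with no treatment named and no second condition. Spike-in RNAs were added to both libraries, and a starting amount, 1 µg, is recorded for replicate 2. Both samples carry the same donor entry, and the animal of replicate 2 is numbered differently in its labels, so whether the libraries came from separate animals is not known and p values measure only the spread between the reads of these libraries. On annotated genes the libraries held 927914 and 1303420 reads, and the model of an average read was 2335 nt long in replicate 1 and 1904 nt in replicate 2. All 8 markers of the adrenal cortex and medulla were read, with summed levels of 17789 and 11108 reads per 1000000 gene reads in replicate 1 and 13854 and 5920 in replicate 2. All 4 hepatocyte markers were read as well, at 8371 and 24027 in sum, and so were all 3 brown adipocyte markers, at 6302 and 7549, all 3 muscle markers, at 765 and 2094, and all 3 erythroid markers, at 1104 and 3752. The summed hepatocyte, muscle and erythroid markers were thus higher in replicate 2, and their part in the differences between libraries was not tested. Single markers went against their sum. The erythroid Alas2 (98.1 and 56.0) and the brown adipocyte Ucp1 (4451 and 2927) were lower in replicate 2. The medullary Pnmt (639 and 707) and the cortical Cyp11a1 (7423 and 7442) were higher. All other markers went the way of their sum.

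A messenger RNA begins at a transcription start site, and many genes have more than 1 such site, each with its own promoter and first exon. In the cell, a site inside the gene gives a shorter RNA that lacks the first exons, and that may lack the start codon of the protein. A read can also begin late because the RNA was broken or because the copying enzyme, which starts at the poly(A) tail, stopped before the cap, and a sequenced read alone does not show which of these took place.

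The exon junctions at which several of the most-read late chains began are shown first, as the last 30 bases of the exon that the reads lacked (lower case) and the first 30 bases of the first exon they kept (capitals). They were taken from the annotated transcript that each chain matches, in the direction of the transcript, and all lie within coding sequence.
Alb exon 8: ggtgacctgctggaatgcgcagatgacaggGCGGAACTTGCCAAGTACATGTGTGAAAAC
Alb exon 4: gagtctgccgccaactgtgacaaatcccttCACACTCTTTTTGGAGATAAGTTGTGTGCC
Fabp4 exon 3: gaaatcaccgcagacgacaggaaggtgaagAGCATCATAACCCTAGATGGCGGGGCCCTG
Chgb exon 4: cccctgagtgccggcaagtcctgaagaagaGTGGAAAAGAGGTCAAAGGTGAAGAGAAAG
Cyp11a1 exon 4: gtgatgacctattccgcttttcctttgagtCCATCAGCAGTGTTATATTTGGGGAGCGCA
Star exon 4: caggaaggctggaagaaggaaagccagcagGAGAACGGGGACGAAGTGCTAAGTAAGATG
Nr5a1 exon 4: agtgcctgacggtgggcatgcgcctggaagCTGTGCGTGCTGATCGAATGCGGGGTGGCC
Pink1 exon 4: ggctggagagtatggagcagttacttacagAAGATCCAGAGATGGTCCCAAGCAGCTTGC
On mm10 the capitals lie at chr5:90468481-90468510 and chr5:90463984-90464013 (plus strand) in Alb, chr3:10205313-10205342 (minus) in Fabp4, chr2:132792330-132792359 (plus) in Chgb, chr9:58019293-58019322 (plus) in Cyp11a1 and chr8:25810945-25810974 (plus) in Star. Those of Nr5a1 lie at chr2:38708510-38708539 and those of Pink1 at chr4:138318049-138318078, both on the minus strand. An ATG in the reading frame of the protein begins 18 bases after the first capital in Alb exon 8, 17 bases after it in Nr5a1 and 27 bases after it in Star. Over all chains with a matching annotated transcript, the 100 bases around the junction had a median of 56.0% G and C (1569 first retained exons), beside 53.0% around the other internal exons of the same transcripts (7351 exons). The second exon made up 29.4% of the first set and 6.87% of the other, and the part of position in the G and C content was not tested.

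The chains most often began at the first base of an internal exon. Of the 1612 chains, 884 (54.8%) had that 5' end, and they held 58.0% of the reads of the set in replicate 1 and 58.9% in replicate 2. Another 478 (29.7%) ended 5' within 50 nt of an annotated start of another transcript of the gene or of the chain's own match, of which 475 lay on that start to the base. These ends mixed kinds of annotated transcript: 204 lay at a protein-coding transcript's start and 274 only at starts of transcripts without coding sequence or marked for decay, 174 of them at a retained-intron transcript alone. A further 166 began inside the first retained exon, 41 in the intron before it, 26 in an earlier exon and 17 had no annotated match and no start nearby. In 54 chains whose match codes for a protein the 5' end lay within 50 nt of the start of the matching transcript itself, with intron sequence kept unspliced, so that these models did not start late. The files hold 1 5' end per model and not per read, and 1404 of the 1612 ends (87.1%) were an annotated exon's first base. How ends were set is not given in the sources used here, so an end names an exon more surely than a base.

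**Figure D1:**
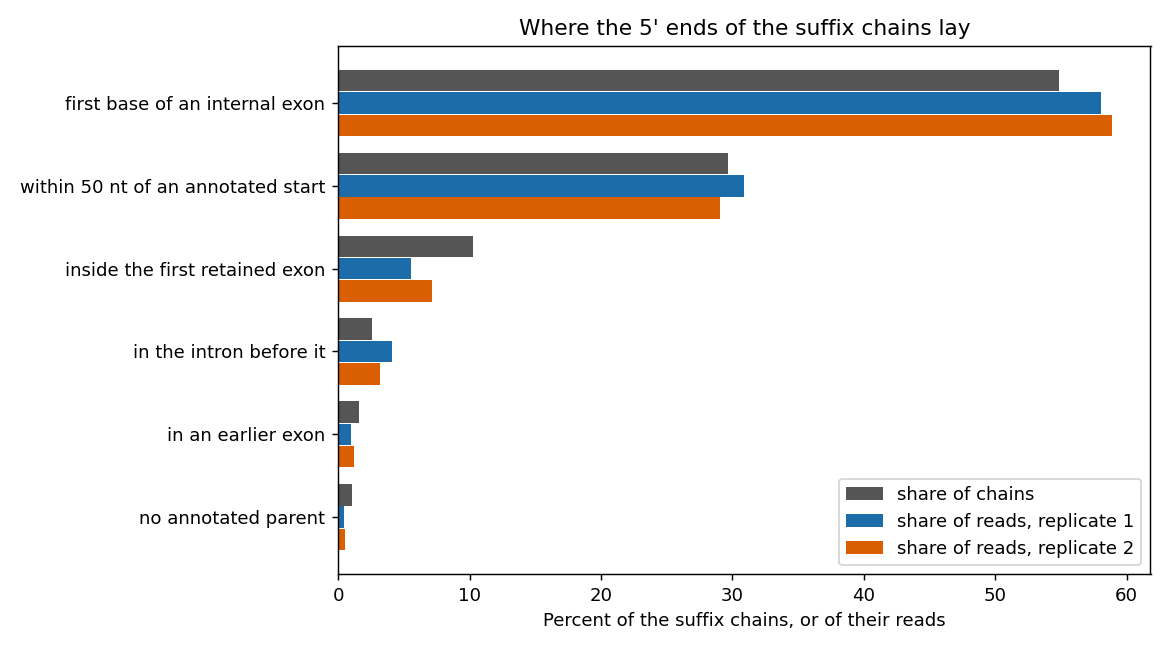
Places of the 5' ends. Bars give the percent of the 1612 suffix chains (grey) and of their reads in replicate 1 (blue) and replicate 2 (orange) for each place, and the first base of an internal exon takes over 50% of chains and of reads in both libraries.

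The exons at which chains began differed from the other internal exons of the same transcripts in length and position, as a description. First retained exons had a median length of 153 nt, beside 117 nt for the other internal exons, and 27.4% were longer than 200 nt, beside 8.77%. An annotated start of another transcript lay within 14.3% of them, beside 8.53% of the other internal exons. The second exon was the first one kept in 462 of 1569 chains (29.4%) and made up 6.87% of the other internal exons. The median chain lacked 3 exons and 592 nt. The longest loss was 50 exons, and 234 chains lacked more than 10. Exons were counted as lacking by the missing introns, so a chain that keeps an intron unspliced lacks fewer exons and bases than counted. The 3' ends were annotated ones in 1406 chains (87.2%).

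Few late chains began at a RefSeq start. Of 1216 chains in genes with a RefSeq promoter under the same symbol, 75 (6.17%) had the 5' end within 50 nt of it, and 1 of these was near no GENCODE start. With matching transcripts' own starts left out, 36 such promoters remained. The 100 bases before the start are shown for 3 of them, taken from the 6 most-read ones whose window overlaps no annotated exon of the gene (RefSeq, GRCm38.p6). Capitals mark an AG, the last letters of a splice acceptor, directly before the start.
Egln2: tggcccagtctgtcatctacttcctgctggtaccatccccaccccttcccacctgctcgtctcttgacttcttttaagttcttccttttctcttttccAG
Ak1: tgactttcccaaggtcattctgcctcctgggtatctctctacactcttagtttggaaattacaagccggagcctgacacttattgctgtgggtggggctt
Ssrp1: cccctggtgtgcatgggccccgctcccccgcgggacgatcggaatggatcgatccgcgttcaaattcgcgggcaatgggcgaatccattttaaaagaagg
These windows lie at chr7:27165729-27165828 on the minus strand, chr2:32628290-32628389 on the plus strand and chr2:85037351-85037450 on the plus strand. The chain of 5 exons in Egln2, an oxygen-sensing prolyl hydroxylase, had 21 and 42 reads in replicates 1 and 2, the chain of 6 exons in Ak1, an adenylate kinase, 10 and 9 reads, and the chain of 16 exons in Ssrp1, a histone chaperone subunit, 19 and 6 reads. The letters TATAAA, searched on both strands in the 100 bases before the start, were in none of the 36 windows and in 1827 of all 32851 RefSeq promoters (5.56%), and an AG directly before the start was in 5 of 36 and in 6.07% of all. Among the 6 most-read windows, those of Plin5 and Habp2, not shown, also end in an AG, and that of Asb4, not shown either, does not.

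Most late chains lacked the start codon of the protein, and chains that took most of their gene's reads were more often among those that kept it, as a description. Of 1550 chains whose match codes for a protein, 210 (13.5%) kept the annotated start codon, 1288 (83.1%) lost it and 52 spanned it with an unspliced intron. The chains that kept it lacked only 1 intron of their match in 199 of 210 cases. They took 34.5% of the reads of the set in replicate 1 and 21.1% in replicate 2, and chains without the start codon took 60.2% and 74.4%. Much of the 34.5% came from Hsd3b1, whose 4-exon chain gave 4050 of these 11069 reads and whose 3-exon chain gave 659. Behind the 21.1% these chains gave 2949 and 475 of 12799 reads. The 4-exon chain is counted here although replicate 1 classed it as both prefix and suffix. Where both libraries gave the gene at least 50 reads, the median chain that kept the start codon held 6.76% and 7.30% of the gene's reads. The median chain that lost it held 1.33% and 3.12%. A share of 50% or more in both libraries was reached by 14 of 172 chains with the start codon and by 4 of 1143 without it. The chains without it kept a median of 58.6% of the coding bases, and 1215 of 1288 (94.3%) held a later ATG in the same frame. Its median distance was 90 nt from the 5' end, or from the start of the first retained exon where the chain began before that exon.

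**Figure D2:**
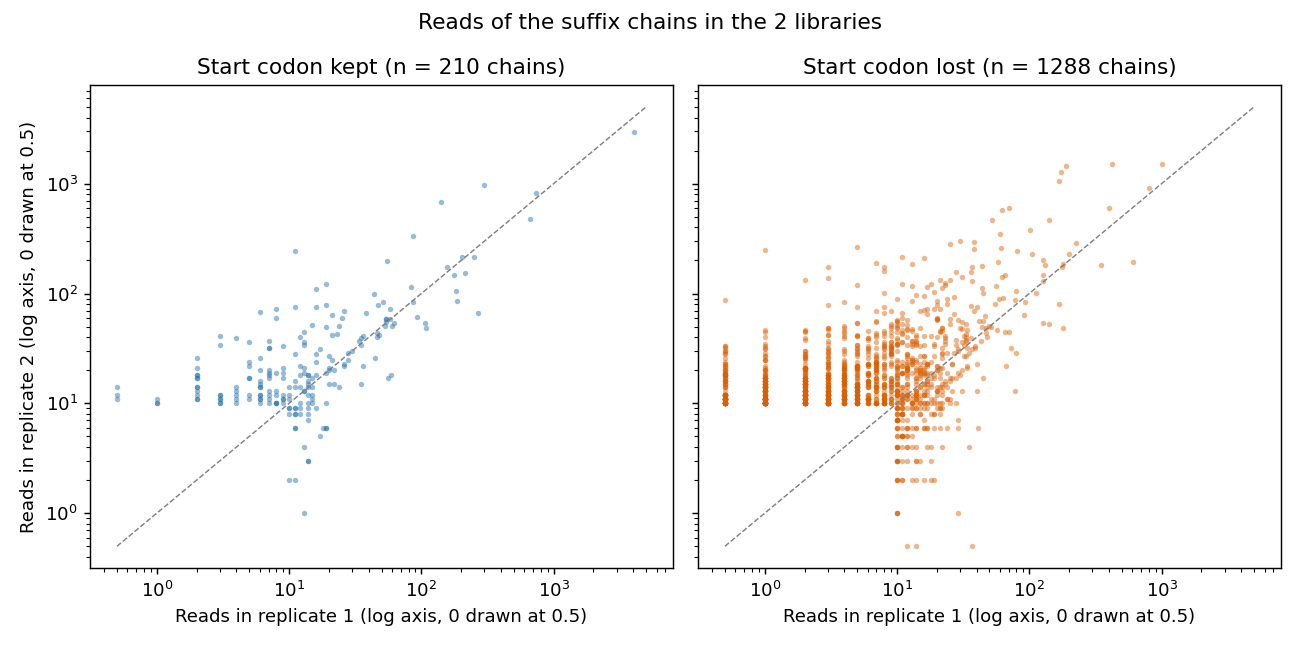
Reads of each chain in replicate 1 (x axis) and replicate 2 (y axis), both on log axes with 0 drawn at 0.5, for 210 chains with the start codon (left) and 1288 without it (right). The dashed line marks equal reads, and the empty lower left corner is the minimum of 10 reads in either library.

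The minimum of 10 reads cut through a dense range of chains. Just inside it, 174 chains had exactly 10 reads in their higher library, with medians of 4 reads in replicate 1 and 10 in replicate 2. Just outside it, 236 suffix chains had 9 reads in their higher library, with medians of 3 and 9. Both libraries gave 10 or more reads for 562 chains, replicate 1 alone for 154 and replicate 2 alone for 896. The chains were suffix models in both libraries in 1485 cases, unread in replicate 1 in 97 and in replicate 2 in 3, and 27 were put in another class in 1 library.

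The suffix chain took most of the gene's reads in both libraries for the 12 chains named by the highest smaller share, at least 63.6% in each library, and for others outside these 12, such as that of Pink1 given below. Psmc2, an ATPase subunit of the proteasome, led them: its chain of 12 of 13 exons had 250 of 258 gene reads in replicate 1 and 217 of 230 in replicate 2. These are shares of 96.9% (95% Clopper-Pearson interval 94.0% to 98.7%) and 94.3% (90.5% to 97.0%). The annotated chains of Psmc2 had 1 read in each library. Ndufa13, a subunit of respiratory complex I, had 141 of 150 gene reads in replicate 1 and 679 of 702 in replicate 2 on a chain of 4 of 5 exons, which is 94.0% and 96.7%. Atp5f1, a stalk subunit of ATP synthase, had 742 of 794 gene reads in replicate 1 and 829 of 896 in replicate 2 on a chain of 7 of 8 exons, which is 93.5% and 92.5%. All 3 chains kept the whole coding sequence, and the intervals of the 2 libraries overlap in each. The 5' end of the Atp5f1 chain is the annotated start of a decay-marked and a retained-intron transcript, while the Psmc2 and Ndufa13 chains began at the first base of exon 2, with no annotated start within 50 nt.

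The other dominant chains came from genes of several tissues. Hsd3b1, the hydroxysteroid dehydrogenase of progesterone synthesis, had 4050 of 5098 gene reads in replicate 1 and 2949 of 3938 in replicate 2 on a chain of 4 of 5 exons, beside 11 and 12 reads on its annotated chains. The chain took 79.4% (95% Clopper-Pearson interval 78.3% to 80.5%) and 74.9% (73.5% to 76.2%). It was classed as suffix in replicate 2 and as both prefix and suffix in replicate 1. A second Hsd3b1 chain, of 3 exons, had 659 reads (12.9% of the gene) in replicate 1 and 475 (12.1%) in replicate 2. In replicate 1 it began at the same base as the 4-exon chain, the first base of an annotated exon, and in replicate 2 189 nt further downstream. Only relative to its own match does this 5' end lie in an intron. The 2 chains together left few reads to the annotated forms, and sharing of reads with the near copy Hsd3b6 was not tested. Serpinc1, the blood clotting inhibitor antithrombin of liver, had 297 reads (91.7% of the gene) in replicate 1 and 963 (69.1%) in replicate 2, and F10, clotting factor X, had 55 reads (94.8% of the gene) in replicate 1 and 199 (87.3%) in replicate 2. Both genes had almost no reads on annotated chains: 0 and 0 for Serpinc1 and 1 and 2 for F10. Msra, a methionine sulfoxide reductase, had 47 reads (88.7% of the gene) in replicate 1 and 79 (81.4%) in replicate 2 on 6 of 11 exons, with the coding sequence of its match whole. Sdsl, a serine dehydratase-like enzyme, had 87 reads (85.3% of the gene) in replicate 1 and 83 (76.1%) in replicate 2, and Tspan12, a tetraspanin, 156 reads (68.4% of the gene) in replicate 1 and 174 (64.4%) in replicate 2. These 2 chains began at the start of another protein-coding transcript, that of Tspan12 by its end in replicate 2. The Tspan12 end in replicate 1 lay 81 nt further 5'. The F10 chain is 1 of the 54 with the 5' end near the start of their own match, by its end in replicate 2, and its end in replicate 1 lay 530 nt further downstream.

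Ctsa, the lysosomal cathepsin A, had 184 reads (84.4% of the gene) in replicate 1 and 105 (69.1%) in replicate 2, and Bud23, a methyltransferase of ribosomal RNA, had 62 reads (88.6% of the gene) in replicate 1 and 54 (66.7%) in replicate 2. C4a, a complement gene, had 35 reads (63.6% of the gene) in replicate 1 and 67 (65.7%) in replicate 2, which is uncertain because C4b is a near copy. Of the 12 chains, 4 differed in share between libraries, all lower in replicate 2 (beside 9.33% of all tested chains called lower), by a two-sided Fisher's exact test with Benjamini-Hochberg adjustment over 14548 chains: Hsd3b1 (log2 odds ratio -0.37, adjusted p = 1.07e-05), Serpinc1 (-2.27, 4.14e-17), Ctsa (-1.27, 0.00689) and Bud23 (-1.89, 0.0176). None of the 4 calls held when single-exon reads were left out of the gene total, where the adjusted p by the same exact test was 0.890, 0.149, 0.0756 and 0.0592.

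**Figure D3:**
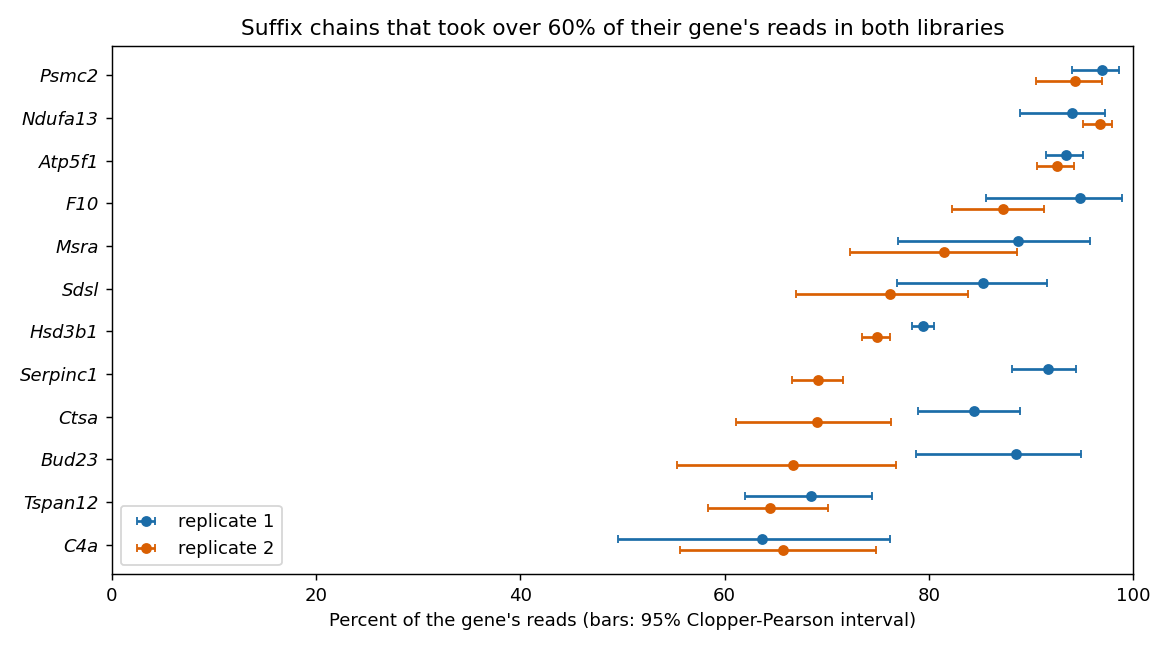
Share of the gene's reads (x axis, percent) taken by the 12 suffix chains with the highest smaller share of the 2 libraries, among genes read at least 50 times in both, in replicate 1 (blue) and replicate 2 (orange). Bars are 95% Clopper-Pearson intervals, which cover counting error only, and they overlap for Psmc2, Ndufa13 and Atp5f1 but not for Serpinc1.

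Other chains kept the start codon at a smaller share of their gene. Hnrnpf, an RNA-binding splicing factor, had 202 reads (33.0% of the gene) in replicate 1 and 213 (30.2%) in replicate 2 on 4 of 5 exons at a protein-coding start, which lies within 50 nt of the start of its own match. Prkar1a, the regulatory subunit of protein kinase A, which carries the corticotropin signal in adrenal cells, had 178 reads (17.7% of the gene) in replicate 1 and 147 (14.9%) in replicate 2 on 11 of 12 exons. In both genes the adjusted p of the exact test between libraries was above 0.05, at 0.623 and 0.312. Gnas, the gene of the G protein that stimulates cAMP, had a chain of 12 exons. It had 212 reads (5.64% of the gene) in replicate 1 and 154 (2.81%) in replicate 2. The share fell (log2 odds ratio -1.05, adjusted exact p = 1.08e-09). Its match has 13 exons and is not the most-read annotated Gnas transcript, which has 12. The start codon counted as kept is that of the match, and whether it is that of the G protein was not tested. The Hnrnpf and Gnas chains are among the 54 models that did not start late. Npy, a neuropeptide of chromaffin cells, had 16 reads (10.2% of the gene) in replicate 1 and 109 (17.8%) in replicate 2 on 3 of 4 exons, with the coding sequence whole.

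Between the libraries, suffix reads took more of a gene in replicate 2 more often than less. They were 60083 reads, 6.48% (95% Clopper-Pearson interval 6.43% to 6.53%) of gene reads, in replicate 1 and 108952 reads, 8.36% (8.31% to 8.41%), in replicate 2, a mean of 7.42% ± 1.33 (SD, n = 2). A chain put in another class in 1 library is left out of the suffix reads of that library. The 4-exon Hsd3b1 chain (4050 and 2949 reads) and the 9-exon Cyp21a1 chain (226 and 235) thus count in replicate 2 alone. The part of such chains in the difference was not tested. The 1612 chains, counted with their reads of any class, held 3.46% and 4.66%, a mean of 4.06% ± 0.849 (SD, n = 2). The share of suffix reads was tested in 6342 genes read at least 20 times in both, and 432 (6.81%) were called by a two-sided Fisher's exact test with Benjamini-Hochberg adjustment at 0.05, 379 higher in replicate 2 (5.98%) and 53 lower (0.836%). Among genes with a chain of the set, 281 of 904 were called, 241 higher and 40 lower; these genes were chosen for their suffix reads in either library, so nothing is read from that count. The same libraries differed in read length and in marker genes, as given above, and in prefix reads, at 0.617% and 1.27% of gene reads, and reads of single-exon models, at 6.53% and 14.3%; the part of these in the differences was not tested.

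Chain by chain, the share of the gene's reads was tested over 14548 chains of every class, of which 1988 (13.7%) were called, 631 higher in replicate 2 (4.34%) and 1357 lower (9.33%). Of the 1604 tested chains of the set, 431 were called, 367 higher and 64 lower. With 10 or more reads in each library, 135 of 558 were called, 99 higher and 36 lower, beside 1199 of 7627 for chains of every class at that minimum, 157 higher and 1042 lower. The chains with the start codon gave 33 calls of 209, 19 higher and 14 lower, and those without it 379 of 1284, 334 higher and 45 lower. The median log2 odds ratio was -0.01 for the first, 0.91 for the second and -0.33 for all tested chains. More reads in replicate 2 let more chains pass the minimum through that library, and so these directions are a description of the set.

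Genes of steroid synthesis gave 56 of the chains, in 14 of the 19 genes listed, and 3 of these chains kept the start codon. The suffix share of 19 tested genes was called higher in replicate 2 in 9 and lower in 1, beside 5.98% and 0.836% of all 6342 genes tested. The median shares of the list were 4.15% and 8.60% in replicates 1 and 2, beside 3.15% and 4.65% over all genes tested. Hsd3b1 is 1 of the 9: its suffix share was 12.9% and 87.7%, with the 4-exon chain counted as suffix in replicate 2 alone, while the share of that chain fell slightly, as given above. Star, which carries cholesterol into the mitochondrion, had 200 reads (4.91% of the gene) in replicate 1 and 231 (5.94%) in replicate 2 on its chain of 4 of 7 exons; this share did not pass the exact test (log2 odds ratio 0.29, adjusted p = 0.203), but did with single-exon reads left out of the gene total (adjusted p = 0.0287). Cyp11a1, the side-chain cleavage enzyme that opens the pathway, had a pair of preferred late starts. Its 6-exon chain from exon 4 had 351 reads (5.10% of the gene) in replicate 1 and 183 (1.89%) in replicate 2 and fell (log2 odds ratio -1.48, adjusted exact p = 8.45e-28). Its 4-exon chain from exon 6 had 81 reads (1.18% of the gene) in replicate 1 and 242 (2.49%) in replicate 2 and rose (1.10, adjusted exact p = 2.78e-08). The order of the 2 chains was thus reversed between libraries. All suffix reads of Cyp11a1 were 528 of 6888 and 542 of 9700 reads, called lower in replicate 2 (log2 odds ratio -0.49, adjusted exact p = 7.08e-06), and called higher with single-exon reads left out (log2 odds ratio 0.52, adjusted exact p = 1.80e-06). Without those reads the log2 odds ratio was -0.54 for the 6-exon chain and 2.06 for the 4-exon chain.

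Cyp21a1, the steroid hydroxylase of corticosterone synthesis, gave 12 chains, and its suffix reads were 343 of 7463 and 534 of 4650 reads in replicates 1 and 2 (log2 odds ratio 1.43, adjusted exact p = 2.39e-41). Its most-read chain, of 9 exons, had 226 reads (3.03% of the gene) in replicate 1 and 235 (5.05%) in replicate 2 and spans the start codon with the first intron unspliced. This chain was classed as suffix in replicate 2 and as both prefix and suffix in replicate 1. Its 226 reads are therefore not among the 343 suffix reads of replicate 1, and the part of this in the rise was not tested. Nr5a1, the nuclear receptor that sets adrenal cell identity, had 105 reads (23.5% of the gene) in replicate 1 and 229 (43.3%) in replicate 2 on its chain from exon 4, which keeps 82.4% of the coding bases and lacks the part before the junction shown above. That share rose by a log2 odds ratio of 1.31 (adjusted exact p = 5.97e-09). Por, the electron donor of microsomal P450 enzymes, had suffix shares of 21.2% and 39.6% (adjusted exact p = 5.98e-04), and Cyp11b1, the last enzyme of corticosterone synthesis, 3.26% and 5.87% (adjusted exact p = 3.88e-06). Scarb1, the receptor for cholesterol of lipoproteins, gave 7 chains, and its suffix share was 9.68% and 9.17%, not called (adjusted exact p = 1.00). Mrap, a partner of the corticotropin receptor, had a 2-exon chain read in 1 library only, with 0 of 299 reads in replicate 1, where a count of 0 allows up to 3 reads, and 30 of 354 in replicate 2.

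Genes of the chromaffin cells of the medulla gave 21 chains in 9 of 21 listed genes. The suffix share of 14 tested genes was called higher in 4 and lower in 1, beside 5.98% and 0.836% of all genes tested. Chgb, a granin of the secretory granule, had 604 reads (15.3% of the gene) in replicate 1 and 194 (7.59%) in replicate 2 on a chain that begins at exon 4, the long exon that holds 90.6% of the coding bases. This share fell (log2 odds ratio -1.13, adjusted exact p = 4.21e-19). Its sister granin Chga went the other way, with suffix reads of 188 of 3617 and 330 of 2898 reads (adjusted exact p = 1.87e-17). Dbh, which makes noradrenaline from dopamine, had suffix reads of 72 of 274 and 112 of 173 reads (log2 odds ratio 2.35, adjusted exact p = 1.79e-13), and Th, tyrosine hydroxylase, 23 of 2150 and 90 of 1341 reads (2.71, adjusted exact p = 3.81e-17). Both shares were higher in replicate 2, in which the total reads of these 2 genes were lower. Pnmt, which makes adrenaline, had 0 of 593 and 17 of 922 reads.

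Of 11 tested liver genes, 3 were called higher in suffix share and none lower, beside 5.98% and 0.836% of all genes tested. Liver genes gave 44 chains in 10 of 12 listed genes. Alb, serum albumin, gave 13 of them, and its most-read one, the 8-exon chain from exon 8, had 1014 reads (21.6% of the gene) in replicate 1 and 1510 (13.3%) in replicate 2. It keeps 53.8% of the coding bases. Its share fell (log2 odds ratio -0.84, adjusted exact p = 5.75e-35) while the 12-exon chain from exon 4, with 175 reads (3.73% of the gene) in replicate 1 and 1266 (11.2%) in replicate 2, rose (1.69, adjusted exact p = 1.46e-55). The 11-exon chain from exon 5, with 52 reads (1.11% of the gene) in replicate 1 and 468 (4.13%) in replicate 2, rose as well (1.93, adjusted exact p = 1.29e-24). Trf, transferrin, gave 14 chains, all small beside its 7417 and 23130 reads; suffix reads took 1.97% and 3.89%. Hepatocyte markers were 8371 and 24027 reads per 1000000 gene reads in sum, and the chains of liver genes had 1727 and 6346 reads. In bulk tissue, more cells of a type and more RNA per cell cannot be told apart.

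Fat genes gave 33 chains in 8 of 12 listed genes. Of 11 tested, 4 were called higher in suffix share and 2 lower, beside 5.98% and 0.836% of all genes tested. Fabp4, the fatty acid carrier of fat cells, had 801 reads (55.9% of the gene) in replicate 1 and 917 (38.0%) in replicate 2 on its last 2 exons, which hold 37.9% of the coding bases, and 181 reads (12.6% of the gene) in replicate 1 and 185 (7.66%) in replicate 2 on its last 3. Both fell by the exact test (log2 odds ratios -1.05 and -0.80, adjusted p = 8.12e-25 and 2.08e-05). Cd36, a fatty acid transporter, had 127 reads (43.6% of the gene) in replicate 1 and 54 (11.0%) in replicate 2 on its last 2 of 15 exons (-2.63, adjusted exact p = 1.62e-22). Lpl, lipoprotein lipase, moved in the opposite sense, from 78 of 1544 to 425 of 1455 reads on suffix models. Its 7-exon chain had 38 reads (2.46% of the gene) in replicate 1 and 293 (20.1%) in replicate 2 (3.30, adjusted exact p = 3.11e-56). Ucp1, the heat-making carrier of brown fat, had 78 reads (1.89% of the gene) in replicate 1 and 87 (2.28%) in replicate 2 on its most-read chain, a share that did not pass the test (adjusted exact p = 0.561).

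Collagen and matrix genes had the highest suffix shares of the lists, with medians of 41.7% and 43.3% over 11 tested genes. Of these 11, 4 were called lower in replicate 2 and none higher, beside 0.836% and 5.98% of all genes tested. The list gave 66 chains in 6 genes. Col1a1, a chain of type I collagen, gave 20 chains, more than any other gene, and its suffix reads were 150 of 397 and 477 of 1578 reads, not called (adjusted exact p = 0.0626). Col1a2, its partner chain, had 179 of 199 and 277 of 326 reads on suffix models. Col4a1 and Col4a2, of the basement membrane, had suffix shares of 59.7% and 43.3% and of 63.8% and 45.2%, and both fell (adjusted exact p = 2.69e-05 and 1.67e-04), the second only with single-exon reads counted (adjusted exact p without them = 0.228). Col3a1 gave 16 chains, and its share went from 19.2% to 13.6% (adjusted exact p = 1.39e-04). Sparc, a matrix glycoprotein, had 6 chains, among which the 7-exon one had 167 reads (6.67% of the gene) in replicate 1 and 81 (4.41%) in replicate 2 and the 6-exon one 127 reads (5.08% of the gene) in replicate 1 and 130 (7.08%) in replicate 2. By the exact test the first fell and the second rose (adjusted p = 0.0151 and 0.0464), and the first call was lost with single-exon reads left out (adjusted p = 0.214).

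Genes of energy metabolism gave 70 chains in all 12 listed genes, and 9 of the 12 were called higher in suffix share in replicate 2, none lower, beside 5.98% and 0.836% of all 6342 genes tested. Their median shares were 4.83% and 11.8%. Atp5b, the catalytic subunit of ATP synthase, had 420 reads (7.37% of the gene) in replicate 1 and 1516 (17.2%) in replicate 2 on its last 2 of 10 exons, a rise (log2 odds ratio 1.38, adjusted exact p = 8.68e-66). That 5' end is the annotated start of a transcript without coding sequence. Aldoa, a glycolytic aldolase, had 62 reads (1.81% of the gene) in replicate 1 and 579 (16.9%) in replicate 2 on its 7-exon chain, the largest odds change of the named chains read at least 10 times in both (3.45, adjusted exact p = 5.38e-112). Mdh2, malate dehydrogenase, had suffix shares of 3.14% and 12.6%, and Cs, citrate synthase, 7.08% and 15.9%; both passed (adjusted exact p = 9.02e-21 and 1.75e-08). Pink1, a kinase of damaged mitochondria, had 225 reads (58.9% of the gene) in replicate 1 and 290 (53.4%) in replicate 2 on its chain from exon 4, not called (adjusted exact p = 0.346). Ndufa4, a respiratory chain protein, had 403 reads (43.1% of the gene) in replicate 1 and 599 (27.4%) in replicate 2 on its last 2 exons, and that share fell (adjusted exact p = 3.61e-15). These 2 genes are outside the list.

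Genes of translation, chaperones and actin gave 40 chains in 10 of 12 genes. The suffix share was called higher in 4 of the 12 and lower in 1, beside 5.98% and 0.836% of all genes tested. Eef1a1, the elongation factor that brings aminoacyl-tRNA, had suffix reads of 219 of 1090 and 407 of 1041 reads, and Eef2, the translocation factor, 237 of 657 and 809 of 1613 reads. Actg1, a cytoplasmic actin, had 89 of 1067 and 289 of 984 reads. All 3 rose (log2 odds ratios 1.35, 0.83 and 2.19, adjusted exact p = 1.68e-19, 1.09e-07 and 1.10e-32). Hsp90ab1, a heat shock chaperone, was the 1 gene that fell, from 11.2% to 6.89% (adjusted exact p = 3.66e-04). Of 22 listed genes with known second promoters, only 7 were read at least 20 times in both libraries. Of these 7, 2 had a chain in the set, beside 904 of all 6342 genes tested. They were Gnas with 7 chains and Mest, an imprinted gene, with 1.

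Late reads were counted by the first exon of chains that match the end of the gene's main annotated transcript, in 10 genes chosen with their results known. In Alb, exon 8 took 1014 of 1465 late reads in replicate 1 and 1510 of 4437 in replicate 2, while exon 6 took 15 and 70 and exon 10 2 and 28. In Chgb, exon 4 took 96.5% and 94.2% of late reads, in Atp5b exon 9 took 70.4% and 82.3%, and in Star exon 4 took 59.3% and 68.5%. In these 4 genes the same exon led in both libraries. It did not in Cyp11a1, where exon 4 led in replicate 1 (351 reads, beside 81 from exon 6) and exon 6 in replicate 2 (242, beside 183). In Eef2 exon 7 led in replicate 1 (24.6% of late reads) and exon 10 in replicate 2 (25.9%). Col1a1 was the flat case: late reads began at 42 of 49 possible exons in replicate 1 and at all 49 in replicate 2, and no exon took more than 9.40% and 6.55%.

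**Figure D4:**
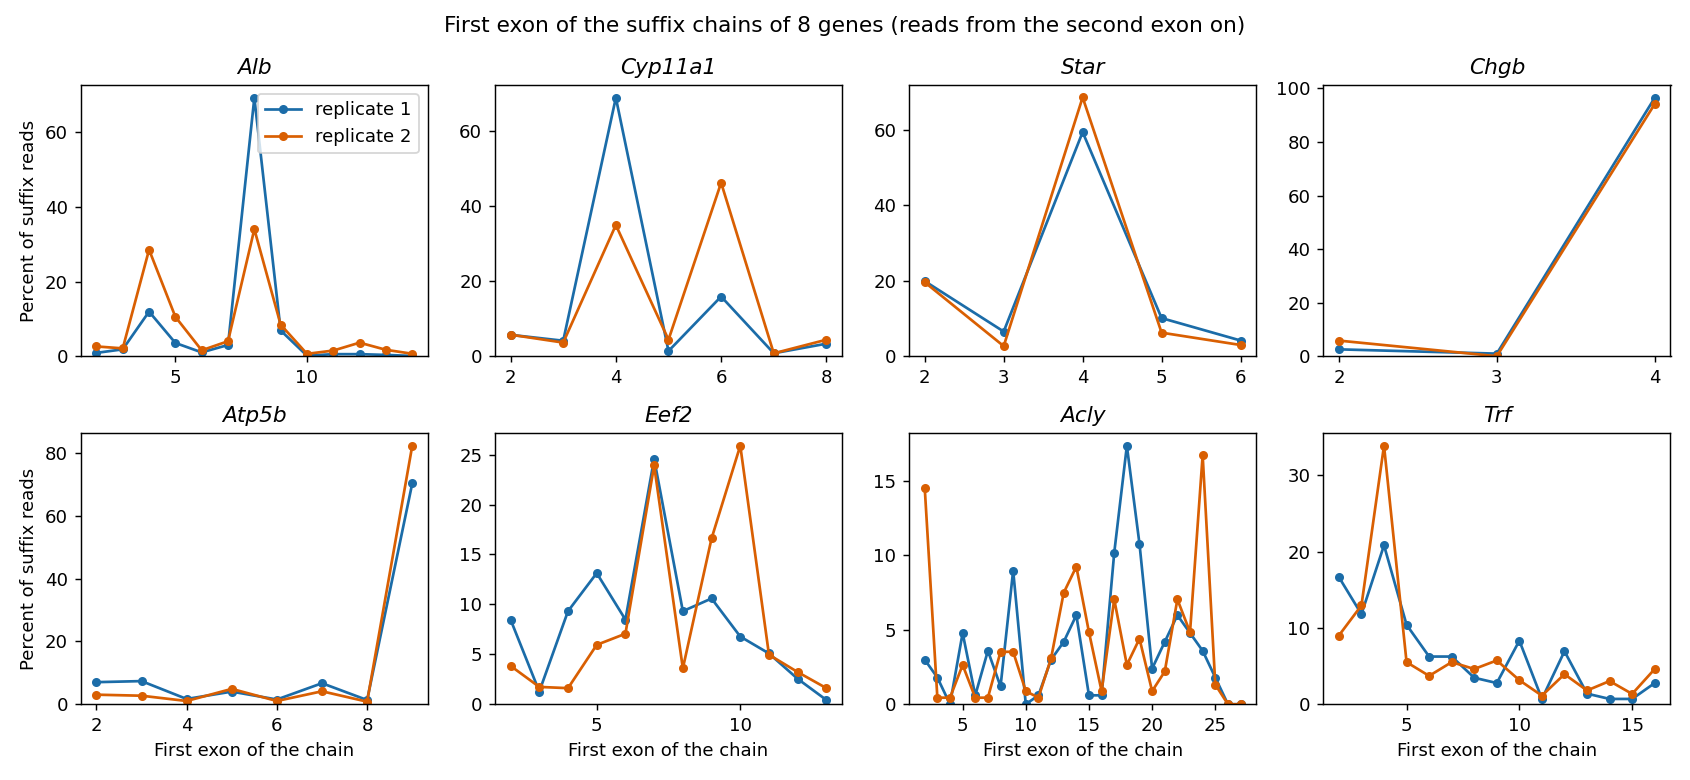
First exon of late-starting chains in 8 genes. Each panel gives the percent of the gene's late reads (y axis) by the first exon of the chain (x axis) in replicate 1 (blue) and replicate 2 (orange); Alb peaks at exon 8, Star at exon 4 and Atp5b at exon 9 in both libraries, and the leading exon differs between libraries in Cyp11a1, Eef2 and Acly.

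Over all genes that both libraries read at least 50 times, the suffix share rose with the number of exons of the most-read annotated transcript. The median was 0% in both libraries for 308 genes with 2 to 3 exons, 2.12% and 3.28% for 848 genes with 6 to 8 exons, and 10.9% and 17.3% for 254 genes with 19 to 67 exons. The rise is in part set by the definition, since a suffix model has 2 or more exons and lacks 1 or more introns. A transcript of 2 exons can give none, and transcripts with more exons allow more late starts. By length, the median went from 1.10% and 1.70% in the shortest group of genes (up to 1377 nt) to 4.50% and 6.03% in the longest (from 3468 nt). Chains of the set came from matches with a median of 10 exons and 2398 nt.

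**Figure D5:**
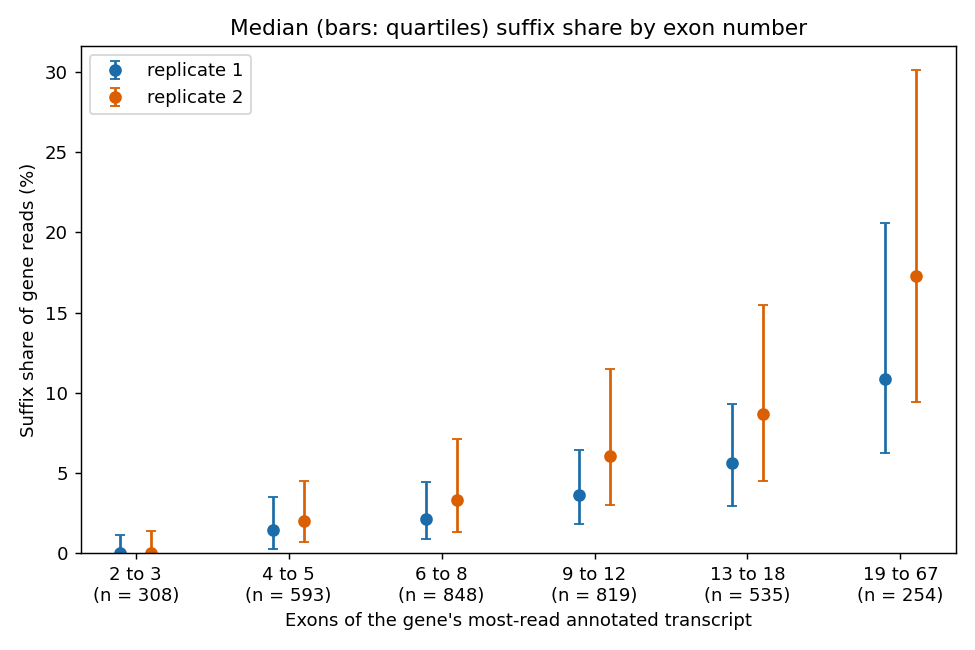
Suffix share of gene reads (y axis, percent) by the number of exons of the most-read annotated transcript (x axis, number of genes in brackets), for genes read at least 50 times in both. Points are medians and bars quartiles over genes, and the medians climb from 0% to 10.9% in replicate 1 (blue) and 17.3% in replicate 2 (orange). Transcripts with more exons allow more suffix chains by definition.

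Chains that began inside an exon or an intron were fewer and mostly small. Acadm, a fatty acid dehydrogenase of mitochondria, had 179 reads (8.53% of the gene) in replicate 1 and 49 (2.11%) in replicate 2 on its last 2 of 12 exons, beginning 246 nt into an exon of 249 nt; the share fell (log2 odds ratio -2.10, adjusted exact p = 2.29e-20). Wdr6, a WD-repeat protein, had 55 reads (36.2% of the gene) in replicate 1 and 81 (47.1%) in replicate 2, beginning 791 nt into an exon of 2482 nt. Maged1, a melanoma antigen family gene, had 25 reads (4.74% of the gene) in replicate 1 and 53 (19.3%) in replicate 2 (2.24, adjusted exact p = 1.78e-08). The chains of Etfb and Arpc1a lay only 3 and 2 nt inside their exon, with 60 and 346 reads and with 32 and 41. Among those in introns, Car3, a carbonic anhydrase of fat and muscle, had 36 reads (0.903% of the gene) in replicate 1 and 157 (2.96%) in replicate 2 and Chga 56 reads (1.55% of the gene) in replicate 1 and 118 (4.07%) in replicate 2; both rose (adjusted exact p = 8.00e-11 and 2.69e-08). Serpina1b and Serpina1d, liver protease inhibitors that are near copies of each other, had 38 and 255 and 23 and 120 reads on their 4-exon chains, which is uncertain for each gene alone.

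The 6 chains with the largest odds ratio upward had 0 reads in replicate 1, where up to 3 reads are allowed, and between 23 and 87 in replicate 2. They were those of Stoml2 (29 of 283 gene reads), a mitochondrial membrane protein, H13 (30 of 361), a signal peptide peptidase, Mrap, Eif5b (42 of 105), an initiation factor, Rps25 (87 of 432), a ribosomal protein, and Mrpl39 (23 of 206), of the mitochondrial ribosome. Downward, Aifm2, an oxidoreductase that guards lipids from oxidation, went from 29 of 714 to 1 of 652 reads, Gpd1, a glycerol phosphate dehydrogenase, from 18 of 1676 to 2 of 2192, and Npc1, a cholesterol transporter of lysosomes, from 22 of 40 to 4 of 30. Cdh13, a cadherin, went from 24 of 26 to 11 of 21, and Hnrnpa2b1, an RNA-binding protein, from 78 of 770 to 13 of 745. The sixth was Cd36, given above. These chains were picked for the size of the difference.

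Chains were matched by all introns, so the first kept intron and the exon before it are the same in both libraries by definition. Only the position of the 5' end can differ, and nothing is read from the shared exon. Of 1512 chains read in both, 1138 (75.3%) had the same 5' end to the base, 1065 of them on the first base of an annotated exon, and 1253 (82.9%) had ends within 50 nt. In 112 chains (7.41%) the ends lay more than 500 nt apart although all introns were the same. The most-read of these were the 6-exon chain of Cyp11a1 (900 nt apart), the 4-exon chain of Ucp1 (3536 nt), the 6-exon chain of Star (982 nt), the 4-exon chain of Cyp21a1 (531 nt) and the 7-exon chain of Aldoa (1503 nt). The Cyp11a1 end was the first base of exon 4 in replicate 1 and lay further 5' in replicate 2, so its place above is that of the library with more reads.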

How the data were processed

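Adrenal gland RNA of 2 libraries was sequenced as long reads. Per the labels, the assembly was mm10. The deposited tables give counts: the authors' raw number of reads per transcript model, with no normalization. Other deposited values are exon numbers, lengths in bases and 1-based positions (other unit). The annotated transcripts matched GENCODE M21, and the deposited annotations carry TALON identifiers for all models; for the aligner and software versions, the entry is: not given in the sources used here. Models of the 2 libraries with identical introns on the same strand were joined, and matched to the annotated transcript with most reads whose chain ends with the same introns. All 283724 annotated transcripts compared, over both libraries, had the same exons as the reference annotation. Suffix reads against all other reads of a gene, and a chain's reads against those of its gene, were compared between libraries with two-sided Fisher's exact tests (scipy 1.17.1), Benjamini-Hochberg adjusted over all genes or chains tested at a threshold of 0.05; 0.5 reads were added before log2 odds ratios. The test procedure was checked on simulated data. No library size enters, as each test is within a gene. Depth was 971827 and 1407511 reads; intervals (95%, Clopper-Pearson) and the 3 reads that a count of 0 allows cover counting error only, as PCR copies of 1 molecule are not told apart. The tables were handled with Python 3.11.15, pandas 2.3.3 and numpy 2.4.6 and drawn with matplotlib 3.10.9. The chains, gene lists and tests were chosen with earlier results of these data known. Spike-ins and unannotated genes were left out, and a few genes are not reported here. Chains were named by rule: the 20 with most reads in the smaller library, the 12 with the largest smaller share, the 10 most-read per kind of 5' end, up to 8 per gene list, the 6 largest odds ratios each way and the 5 most-read with ends over 500 nt apart; list genes without a named chain, Egln2, Ak1 and Ssrp1 were chosen after values were seen. Alternatives changed the read minimum, the distances, the gene total and the genes used.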

Additional observations from a re-analysis of the deposited data

How the results depend on the processing

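The number of chains followed the read minimum: 1612 became 562 with 10 or more reads in each library, 4022 with 5 or more in either and 681 with 20 or more in either, and lay between 707 and 1447 with 1 replicate left out. Their share of gene reads, 4.06% on average, was 3.04% with 10 or more reads in each library and 7.71% with no minimum. For the same 1612 chains it was 3.46% in replicate 1 alone and 4.66% in replicate 2 alone. The share of 5' ends near an annotated start, 29.7%, was 35.6% with 10 or more reads in each library, 32.5% with 20 or more in either, and between 28.7% and 35.8% with 1 replicate left out; other distances moved it to at most 30.6%. Ends within 20 nt of each other in both libraries were 80.2% and within 100 nt 85.9%, beside 82.9% within 50 nt. The 431 chains called between libraries became 248 when all chains were tested with no minimum and 139 with 10 or more reads in each library; 3 other settings gave between 379 and 416. The 432 called genes stayed between 384 and 543 in 6 settings, always with more calls higher in replicate 2. Single-exon reads left out of the gene total ended 6 calls of named chains, those of Hsd3b1 (4 exons), Serpinc1, Ctsa, Bud23, Sparc (7 exons) and Cdh13, and added 2, those of Star (4 exons) and Dbh (10 exons); the cause was not tested, and no named chain reversed. For the suffix share of list genes, leaving out single-exon reads turned the fall of Cyp11a1 (-0.49 on the log2 scale) into a rise (0.52), as did using annotated and incomplete-match reads alone (0.51), under which Col6a1 went from a called fall to 1.78 without a call; these totals also ended the call of Col4a2 and added those of Ogdh and Eif4a1. No paired analysis was possible because both libraries belong to the same group. Depth limits shares in genes with few reads, as in Npc1 with 40 and 30.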
